A study of Bos taurus with 8 samples.

Results

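The genes of MHC class I antigen presentation and of the immunoproteasome were examined in granulosa cells of heat-stressed and pair-fed cows. The group was defined by the 9 gene symbols BOLA, JSP.1, B2M, TAP1, TAP2, TAPBP, PSMB8, PSMB9 and PSMB10 in the array annotation. Every BOLA cluster was kept, and each other symbol was represented by its transcript cluster of the highest mean signal, which gave 11 of the 26773 transcript clusters on the array. A transcript cluster is the set of probes that the array design assigns to a gene. TAP2 alone had a further cluster, which brings the number to 12. The class I heavy chain genes of cattle are very similar to each other and can share probe sequence, so that the BOLA and JSP.1 signals cannot be assigned to 1 gene with certainty.

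RNA of 8 German Holstein cows in established lactation was measured, each on its own Affymetrix Bovine Gene 1.0 ST array. Heat stress (HS) was applied to 4 cows, and 4 thermoneutral controls were pair-fed (PF). HS cows stayed in a climate chamber at 28°C, 52% relative humidity and a temperature humidity index of 76, and PF cows at 15°C, 64% and an index of 60. According to the labels this stay lasted 96 h. Feed of the PF cows was restricted to the reduced intake measured in the HS group, and no thermoneutral group on unrestricted feed was included. The age of the cows is not given in the labels. All 8 cows were injected with 500 µg PGF2α 72 h before slaughter and with 100 µg of a GnRH analog 49 h later, which induces the preovulatory LH surge. Mural granulosa cells were scraped from the opened wall of the largest follicle without sorting, so that cells of the wall and of its vessels can be included.

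The values are log2 signals of the robust multichip average (RMA), and array medians lay between 5.33 and 5.44 in PF and between 5.27 and 5.37 in HS. The number of arrays limits the precision. All 12 granulosa markers examined had a mean log2 signal of at least 5. Among them CYP19A1, the aromatase gene, was high in HS replicate 4 only, with a log2 signal of 10.65 against 4.42 to 6.92 on the other arrays. PF replicate 3 stood apart as well, since the LH-induced gene PTGS2 had a log2 signal of 3.46 there and of 10.03 to 11.02 elsewhere. The inhibin subunit gene INHA was at 8.005 in this sample and at 10.47 to 11.37 in the others. Values without one of these arrays are therefore given beside results that rest on it.

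MHC class I molecules display peptides of the cell's own proteins to CD8-positive T cells and natural killer cells. A polymorphic heavy chain pairs with beta-2-microglobulin, peptides enter the endoplasmic reticulum through the transporter TAP, and tapasin brings the empty molecule to this transporter. The peptides are cut by the proteasome, whose constitutive catalytic subunits are replaced by PSMB8, PSMB9 and PSMB10 in immune cells and after exposure to interferon gamma. Nearly all nucleated cells carry class I molecules, and leukocytes carry many of them. Cattle haplotypes differ in the class I genes they hold, and the haplotypes of these cows are not analysed here.

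Differences are given as the log2 fold change, HS minus PF, from limma across all 26773 clusters. A cluster was called at an absolute fold change above 1.5 with an unadjusted p under 0.05. These limits are those of the study's methods, which set them on an analysis of variance, whereas here they were set on the moderated p of limma. Of the 11 member clusters 4 were called, namely 1 of BOLA and those of JSP.1, B2M and PSMB8, and all 4 were lower in HS. Among all clusters on the array 2.21% were called, 0.627% as lower and 1.58% as higher in HS. None of the 11 passed the Benjamini-Hochberg adjustment over all clusters in limma, with adjusted p between 0.683 and 0.949. This was equally so for the whole array, where 0.00% passed, 0 of 26773 clusters, while 1928 (7.20%) had an unadjusted p under 0.05. The mean signal was lower in HS for 10 of the 11 clusters and higher only for TAPBP, whereas 54.0% of all clusters were lower. The median log2 fold change was -0.24 over the members and -0.02 over all clusters. In 1 of the 11 clusters, a BOLA cluster lower in HS, the groups did not overlap, which was the case for 4.64% of all clusters in either direction and for 2.00% as lower in HS. In RNA of a mixed cell layer, fewer cells of a type and less RNA per cell cannot be told apart.

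**Figure D1:**
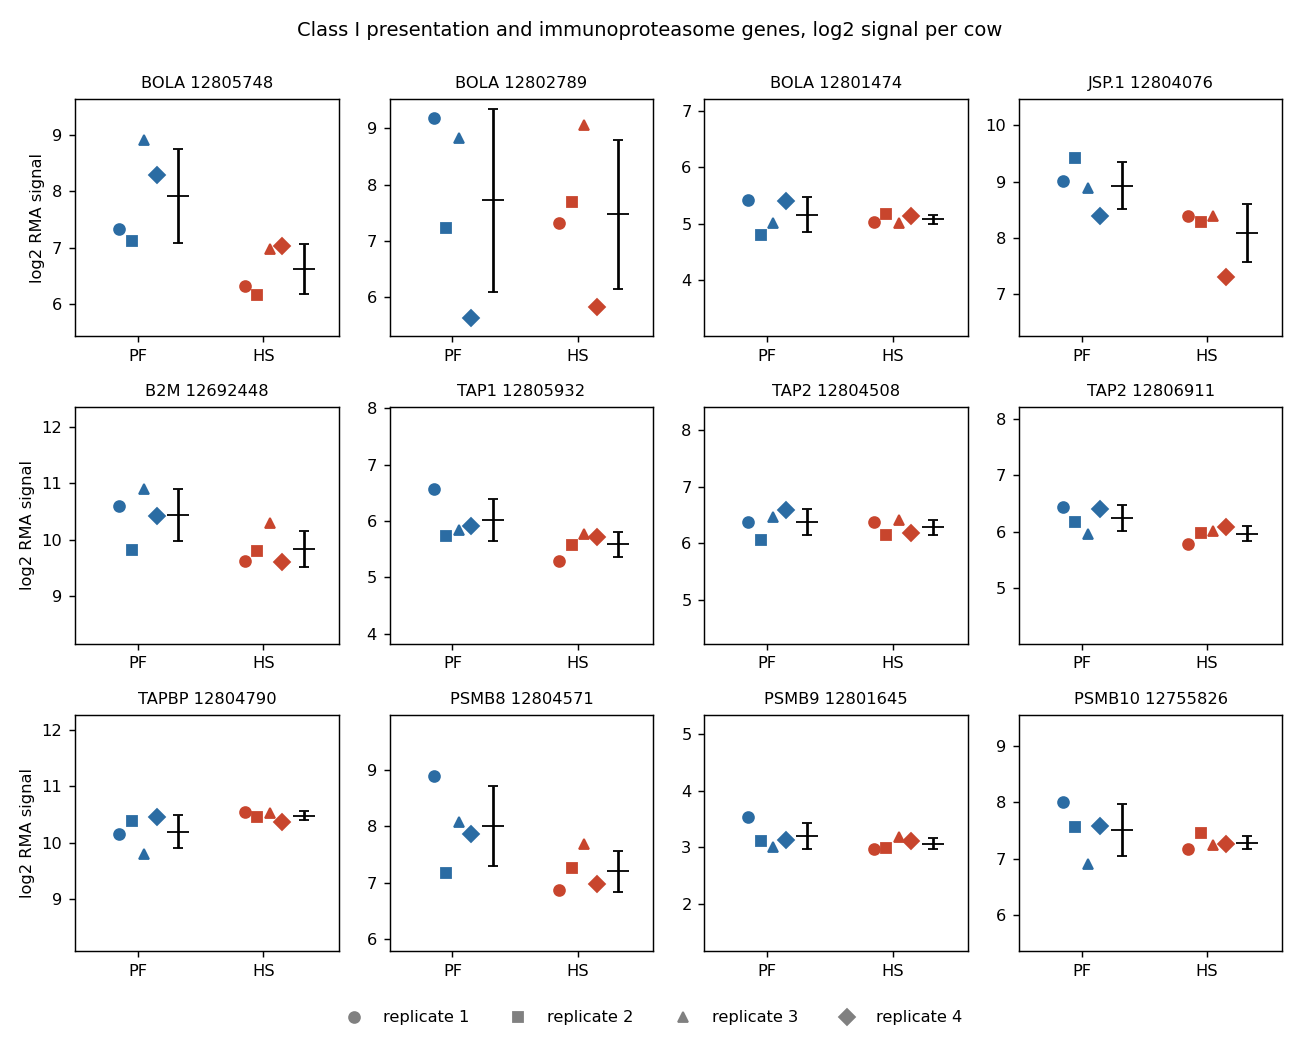
Log2 RMA signal (y axis, every panel spans the same number of log2 units) of the 12 member clusters, including both TAP2 clusters, in the 4 PF and 4 HS cows, 1 point per array with the symbol giving the replicate number. Horizontal dashes with bars are the mean ± SD of each group, and only BOLA 12805748 shows all 4 HS arrays below all 4 PF arrays.

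Of the heavy chain entries, BOLA is a symbol for class I chains. Its cluster 12805748 gave the clearest difference among the members. The log2 signals of PF replicates 1 to 4 were 7.33, 7.12, 8.91 and 8.28, and those of HS replicates 1 to 4 were 6.33, 6.15, 6.98 and 7.02. Every HS sample was below every PF sample, although PF replicate 2 was only slightly above HS replicates 3 and 4. PF samples averaged 7.91 ± 0.84 (SD, n = 4) and HS samples 6.62 ± 0.44 (SD, n = 4). This was a log2 fold change of -1.29 (standard error 0.41, 95% confidence interval -2.23 to -0.36, limma adjusted p = 0.683), or a 2.45-fold lower signal in HS. The exact permutation test gave p = 0.029 (two-sided), the smallest p that 4 against 4 arrays allow. The cluster was called in all 8 repeats that left out 1 array, with log2 fold changes between -1.56 and -0.96. The value of -0.96 came from leaving out PF replicate 3. Without PF replicates 1 and 3 together, the log2 fold change was -1.09 and the cluster was still called.

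The other BOLA clusters did not follow this pattern. Cluster 12802789, which the annotation describes as a non-classical class I sequence, varied more between cows of the same group than any other member cluster. Its log2 signals were 9.19, 7.22, 8.83 and 5.64 in PF replicates 1 to 4 and 7.31, 7.70, 9.05 and 5.84 in HS replicates 1 to 4, a range of 3.55. High signals were seen in both groups, and so was a low one, that of replicate 4 in each. PF samples averaged 7.72 ± 1.63 (SD, n = 4) and HS samples 7.48 ± 1.32 (SD, n = 4). The log2 fold change of -0.24 had a 95% confidence interval of -2.28 to 1.80, which includes changes in either direction that are larger than that of cluster 12805748. The sign turned when PF replicate 1 (0.25), PF replicate 3 (0.12), HS replicate 4 (0.30) or PF replicates 1 and 3 together (1.04) were left out.

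The third BOLA cluster, 12801474, lies on chromosome 23 at 27689369 to 27692407 of the UMD3.1 assembly, plus strand, as stated in the file. Its signals were weak and alike, with 4.79 to 5.43 in PF and 5.01 to 5.17 in HS. The log2 fold change was -0.08 (standard error 0.15, 95% confidence interval -0.43 to 0.28), and it was near 0 without PF replicate 1 or without PF replicate 4.

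JSP.1 (cluster 12804076), a further class I heavy chain entry, was lower in HS as well. The log2 signals were 9.02, 9.41, 8.90 and 8.39 in PF replicates 1 to 4 and 8.38, 8.28, 8.39 and 7.31 in HS replicates 1 to 4. The groups met at a log2 signal of 8.39, where HS replicate 3 was a little above PF replicate 4, and the other HS samples were below all PF samples. PF samples averaged 8.93 ± 0.42 (SD, n = 4) and HS samples 8.09 ± 0.52 (SD, n = 4). This amounted to a log2 fold change of -0.84 (standard error 0.29, 95% confidence interval -1.51 to -0.17, limma adjusted p = 0.683; exact permutation test, p = 0.057). The call was lost without PF replicate 2 (-0.68) and without HS replicate 4 (-0.58), and it was also lost without PF replicates 1 and 3 together, although the value of -0.81 hardly moved.

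B2M (cluster 12692448) encodes beta-2-microglobulin, the light chain that all class I molecules share. Its log2 signals were 10.60, 9.82, 10.91 and 10.42 in PF replicates 1 to 4. In HS replicates 1 to 4 they were 9.63, 9.80, 10.30 and 9.61. PF replicate 2 was at the level of the HS samples, and HS replicate 3 was close to the other PF samples. PF samples averaged 10.44 ± 0.46 (SD, n = 4) and HS samples 9.83 ± 0.32 (SD, n = 4), a 1.52-fold lower signal in HS. As a log2 fold change this was -0.60 (standard error 0.25, 95% confidence interval -1.17 to -0.03, limma adjusted p = 0.683; exact permutation test, p = 0.057). It was close to the fold change threshold, and leaving out 1 array ended the call in 6 of 8 cases, all except PF replicate 2 and HS replicate 3. B2M was also not called by the analysis of variance of the methods. The difference was -0.44 when PF replicate 3 was left out, and -0.29 when PF replicates 1 and 3 were.

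**Figure D2:**
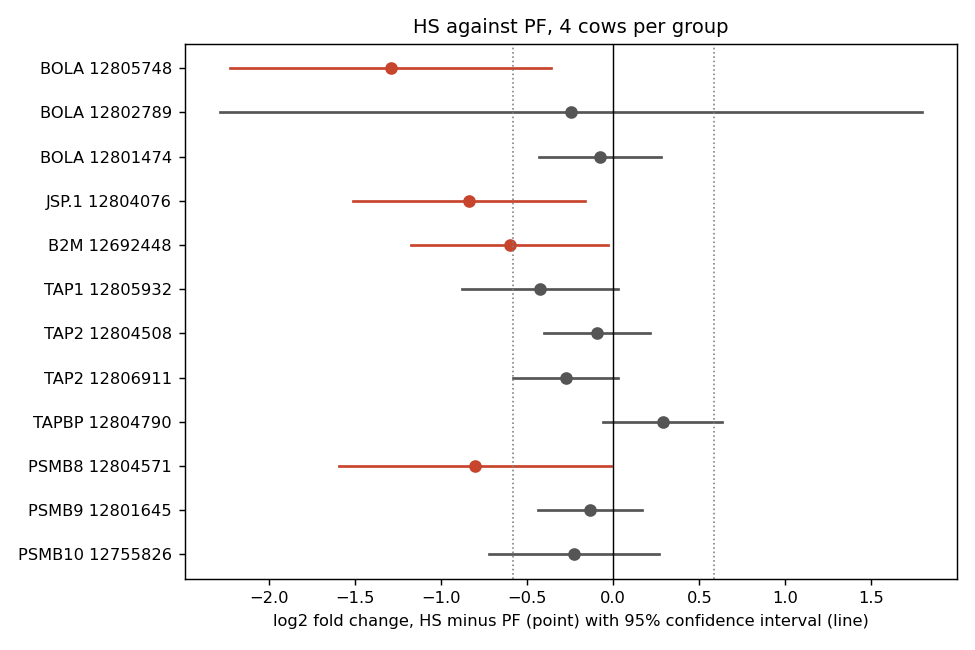
Log2 fold change, HS minus PF (x axis), of the 12 member clusters with the 95% confidence interval from limma. Red marks the 4 called clusters, grey the others, and dotted lines the fold change of 1.5 in either direction; the interval of BOLA 12802789 runs from -2.28 to 1.80.

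TAP1 and TAP2 encode the subunits of the peptide transporter, and neither was called. TAP1 (cluster 12805932) lies on chromosome 23 at 7117863 to 7126822 (UMD3.1, minus strand). Its log2 signals were 6.56, 5.74, 5.85 and 5.92 in PF replicates 1 to 4 and 5.29, 5.57, 5.78 and 5.72 in HS replicates 1 to 4. All HS samples except replicate 3 were below the lowest PF sample, and PF replicate 1 was above all others. The log2 fold change was -0.43 (standard error 0.20, 95% confidence interval -0.88 to 0.03; exact permutation test, p = 0.057), and it was -0.24 without PF replicate 1. The TAP2 cluster 12804508 had log2 signals of 6.05 to 6.58 in PF and 6.15 to 6.41 in HS, with a log2 fold change of -0.09 (95% confidence interval -0.40 to 0.22). The second TAP2 cluster, 12806911, had 5.96 to 6.44 in PF and 5.78 to 6.08 in HS. Its log2 fold change was -0.28 (95% confidence interval -0.58 to 0.03), so that the clusters of this gene did not give the same size of difference.

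TAPBP (cluster 12804790), the gene of tapasin, which holds the empty class I molecule at the transporter, was the only member with a higher mean in HS. The log2 signals were 10.15, 10.38, 9.80 and 10.45 in PF replicates 1 to 4 and 10.55, 10.46, 10.54 and 10.38 in HS replicates 1 to 4. The 4 HS samples were close to each other, and PF replicates 2 and 4 were at or above the lowest of them. HS exceeded PF by a log2 fold change of 0.29 (standard error 0.15, 95% confidence interval -0.06 to 0.63; exact permutation test, p = 0.086), which did not meet the thresholds. It was 0.15 without PF replicate 3, whose signal was the lowest.

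PSMB8, PSMB9 and PSMB10 encode the inducible catalytic subunits of the immunoproteasome. PSMB8 (cluster 12804571) lies on chromosome 23 at 7113304 to 7116676 (UMD3.1, minus strand), with 1186 bases between its end and TAP1. Its log2 signals were 8.89, 7.17, 8.08 and 7.86 in PF replicates 1 to 4 and 6.87, 7.26, 7.69 and 6.98 in HS replicates 1 to 4. As for B2M, PF replicate 2 lay among the HS samples, and HS replicate 3 was the highest of its group. PF samples averaged 8.002 ± 0.71 (SD, n = 4) and HS samples 7.20 ± 0.37 (SD, n = 4), a 1.74-fold lower signal in HS. On the log2 scale HS minus PF was -0.80 (standard error 0.35, 95% confidence interval -1.59 to -0.01, limma adjusted p = 0.683; exact permutation test, p = 0.086). Leaving out 1 array ended this call in 6 of 8 cases, again all except PF replicate 2 and HS replicate 3. The difference was -0.51 when PF replicate 1 was left out, and -0.32 when PF replicates 1 and 3 were. With the replicate number as a block, and by the analysis of variance of the methods, PSMB8 was not called.

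PSMB9 (cluster 12801645) is the neighbour of TAP1 on chromosome 23, at 7127079 to 7133608 (UMD3.1, plus strand), with 256 bases between them. Its signals were weak on all arrays, with 3.00 to 3.53 in PF and 2.97 to 3.19 in HS, and little can be read from its log2 fold change of -0.13 (95% confidence interval -0.43 to 0.17). PSMB10 (cluster 12755826), on chromosome 18 at 35540357 to 35542906 (UMD3.1, minus strand), had log2 signals of 6.90 to 8.02 in PF. Its HS samples were confined to 7.18 to 7.46 and lay within this range. The log2 fold change was -0.23 (standard error 0.22, 95% confidence interval -0.72 to 0.27), and -0.43 without PF replicate 3. Of the 3 inducible subunits, PSMB8 alone was called, and the difference between PSMB8 and the other subunits was not tested.

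**Figure D3:**
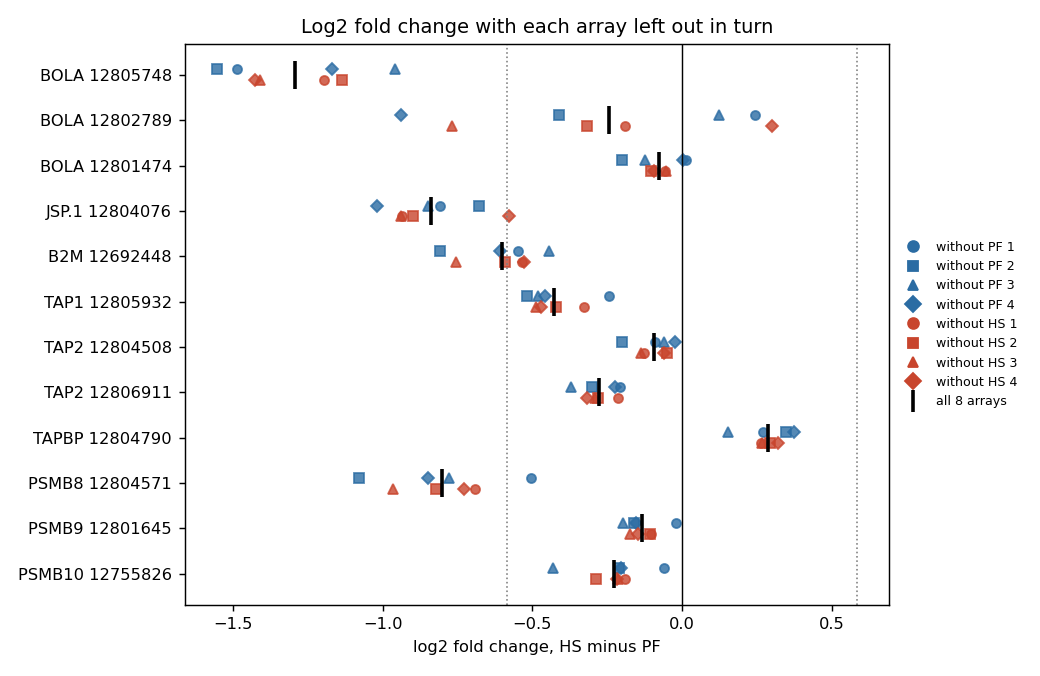
Log2 fold change, HS minus PF (x axis), of the 12 member clusters with each of the 8 arrays left out in turn (blue, a PF array; red, an HS array; the symbol gives the replicate number) and with all arrays (black bar). Dotted lines mark the fold change of 1.5; BOLA 12805748 stayed between -1.56 and -0.96, and BOLA 12802789 lay on either side of 0.

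The members varied between cows in a partly shared order. PF replicate 1 had the highest signal of all arrays in 6 of the 11 clusters and was above the median of the 8 arrays in 10. HS replicate 1 and HS replicate 4 were above the median in 1 cluster each, whereas HS replicate 3 was above it in 8. In 4 clusters, those of B2M, TAP1, TAP2 and PSMB8, the 4 highest signals came from the same arrays, namely PF replicates 1, 3 and 4 and HS replicate 3. PF replicate 2 therefore ranked with the HS samples for these genes, and HS replicate 3 with the PF samples. Of all clusters on the array, 4.83% (1292 of 26773) had these arrays as the 4 highest. The order was read from B2M, itself a member, so this share is no test of the members. For TAP2 the order rested on a small gap, with 6.380 in PF replicate 1 and 6.376 in HS replicate 1. BOLA 12805748 and JSP.1 did not have this order, and neither did TAPBP, which was high in HS replicates 1 to 3.

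Markers of several other cell types moved with this order, whereas theca markers did not. The mean signals per array of MHC class II genes, interferon gamma response genes, lymphocyte and pan-leukocyte markers, myeloid markers, endothelial markers and fibroblast and smooth muscle markers, 6 of the 13 lists examined, had the same 4 arrays at the top. Lower means in HS were seen for 27 of the 28 lymphocyte and pan-leukocyte markers, 4 of them called (among them CD3D, CORO1A and IL7R), with list means of 4.64 to 5.74 in PF and 4.48 to 4.98 in HS. The T cell receptor component CD3D had log2 signals of 5.81, 4.51, 6.25 and 5.36 in PF replicates 1 to 4 and of 4.30, 3.93, 4.90 and 4.45 in HS replicates 1 to 4, and 17 of the 28 markers had a mean log2 signal under 5. All 19 myeloid markers measured were lower in HS, with CD14 called, and their means were 5.70 to 7.86 in PF and 5.55 to 6.60 in HS. The 13 endothelial markers were all lower and none was called (means of 5.48 to 8.13 in PF and 5.26 to 7.54 in HS). All 12 fibroblast and smooth muscle markers were lower too, with TAGLN called (means of 7.38 to 9.66 in PF and 6.88 to 8.86 in HS). Granulosa markers went the other way, with 10 of 12 higher in HS, FST called, and means of 7.62 to 8.23 in PF and 8.17 to 9.23 in HS. The mean of 9.23 was that of HS replicate 4, and the other HS samples were at 8.17 to 8.43. Leaving out HS replicate 4 made 3 of the 12 lower in HS. Of the 5 theca markers 3 were higher and 2 lower, with PTCH1 called as higher (means of 6.77 to 8.32 in PF and 7.55 to 8.28 in HS). The mean of 6.77 was that of PF replicate 3, without which 3 of the 5 were lower in HS. The part of these cells in the differences of the class I genes was not tested. IL7R and CD14 were not called without PF replicate 3 or without HS replicate 4. CD14 was also not called without PF replicate 1, HS replicate 1 or HS replicate 2. TAGLN was not called without PF replicate 1, PF replicate 4, HS replicate 1, HS replicate 2 or HS replicate 4. PF replicates 1 and 3 were left out together after their values were seen, and they are the highest arrays for the myeloid and lymphocyte markers. Without them the median log2 fold change was 0.03 for the myeloid, -0.13 for the lymphocyte, -0.12 for the endothelial and -0.30 for the fibroblast and smooth muscle markers. With all arrays these medians were -0.80, -0.40, -0.87 and -0.88. The values of the called members without PF replicates 1 and 3 were -1.09 for BOLA 12805748, -0.81 for JSP.1, -0.29 for B2M and -0.32 for PSMB8. These replicates are also the highest PF arrays of B2M and PSMB8, whose smaller differences were therefore partly set by the choice of arrays. They are not the highest PF arrays of JSP.1. For BOLA 12805748, PF replicate 3 was the highest of all arrays (8.91) and PF replicate 1 was among the lower PF arrays (7.33). Its log2 fold change was -0.96 without PF replicate 3 and -1.49 without PF replicate 1. These shifts went in opposite directions, which the joint value does not show. Nothing is concluded from the values without both replicates.

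**Figure D4:**
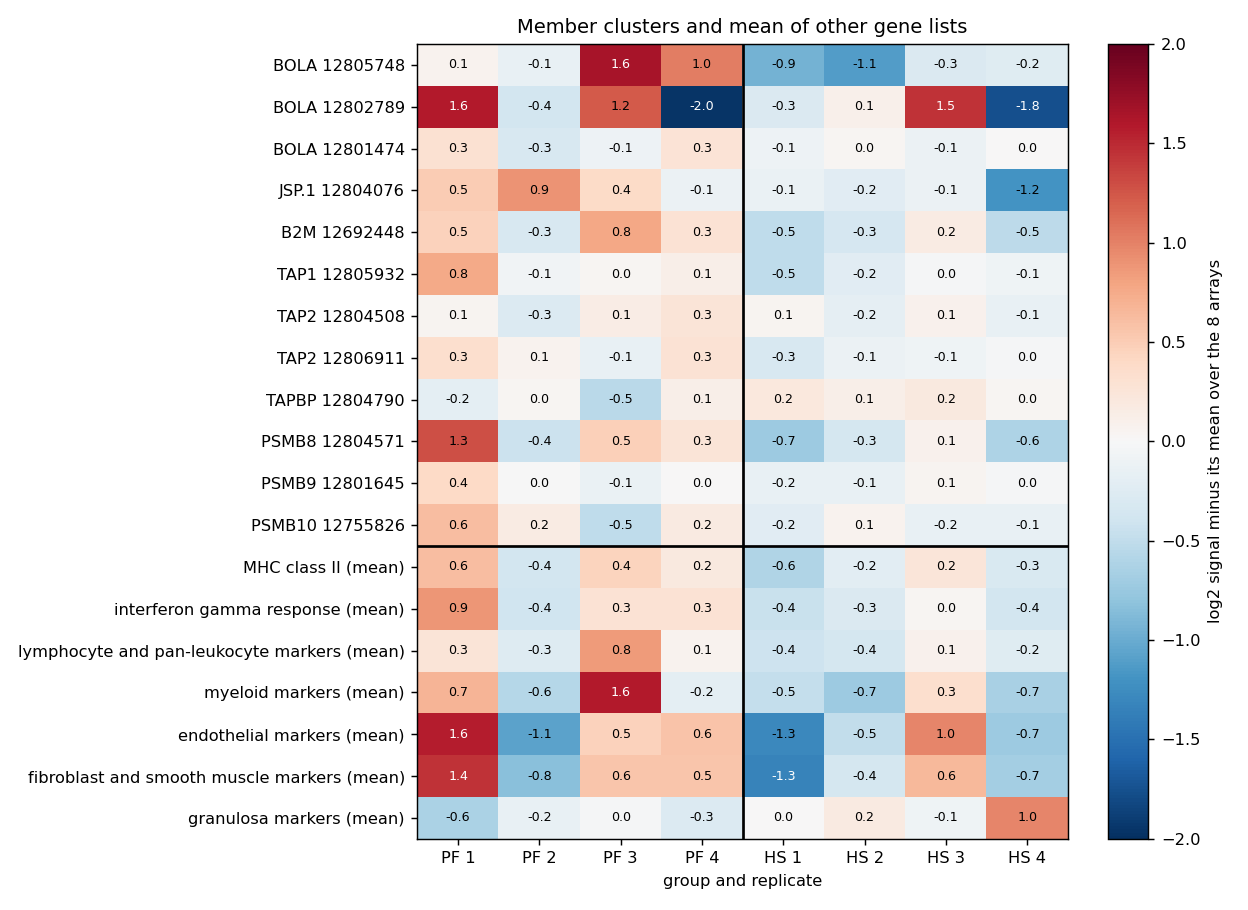
Log2 signal of each of the 12 member clusters (upper rows) and mean log2 signal of 7 other gene lists (lower rows) in each array, as the deviation from the mean over the 8 arrays (colour scale in log2 units, from blue, lower, to red, higher; PF left and HS right of the line). PF replicates 1, 3 and 4 and HS replicate 3 are the 4 highest arrays for B2M, TAP1, TAP2 12804508 and PSMB8 and for the means of all lists shown except the granulosa markers. Of the 13 lists examined, only the 6 with these 4 highest arrays and the granulosa markers are drawn.

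Class I clusters under other symbols did not share a direction. LOC512672 (cluster 12801783) had log2 signals of 9.61, 8.35, 9.11 and 7.88 in PF replicates 1 to 4 and 7.93, 8.20, 8.70 and 6.57 in HS replicates 1 to 4, a log2 fold change of -0.89 (95% confidence interval -2.06 to 0.28) that was not called. It was -0.46 without HS replicate 4. BOLA-NC1 (cluster 12805255), a non-classical class I gene, had 4.81 to 7.67 in PF and 5.47 to 6.73 in HS (log2 fold change -0.65, 95% confidence interval -1.99 to 0.70), and its difference was -0.25 without PF replicate 3. An unnamed class I cluster (12806954) was at -0.35, and at -0.55 without PF replicate 3. Higher means in HS were seen for a cluster written BoLA (12802801, 0.40), for LOC616942 (12803598, 0.09) and for LOC509006 (12884453, 0.37), none of which reached a fold change of 1.5. LOC616942 turned to -0.11 without HS replicate 4.

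Among genes that act around the class I molecule few were called, and these were higher in HS. Of 12 genes of peptide loading and trimming 9 were higher and 3 lower, with a median log2 fold change of 0.17 (all clusters -0.02). Of these TPP2, a cytosolic peptidase, was called, with 7.12 to 8.32 in PF and 8.39 to 8.57 in HS (log2 fold change 0.66), but the call was lost in 5 of 8 repeats without 1 array, among them that without PF replicate 3 (0.43). The chaperone gene CALR, chosen after its values were seen, also had no overlap between the groups, at a log2 fold change of only 0.22. Of 10 proteasome activator and assembly genes 6 were higher and 4 lower (median 0.14), whereas 6 were lower without PF replicate 3 (median -0.04). PSMG2, a proteasome assembly chaperone, was called at 0.91, with 8.07 to 9.76 in PF and 9.82 to 10.38 in HS, a call lost in 4 of 8 repeats, again among them that without PF replicate 3 (0.54). The interferon-inducible activator genes PSME1 and PSME2, chosen after their values were seen, were at -0.05 and -0.06, and at 0.13 and 0.08 without PF replicate 1. The constitutive catalytic subunit genes PSMB5, PSMB6 and PSMB7, whose products the inducible subunits replace, were not called. PSMB5 had a log2 fold change of 0.23, PSMB6 of 0.22 and PSMB7 of -0.06. The higher means of PSMB5 and PSMB6 rested on PF replicate 3, without which they were at -0.01 and -0.07 and all 3 genes were lower in HS.

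Of 10 transcription factors of class I genes, 4 were higher and 6 lower with a median log2 fold change of -0.01, and none was called. IRF2, a factor of the interferon response, had -0.02, and 0.20 without PF replicate 3. NLRC5, the transactivator of class I genes, was at -0.40 (95% confidence interval of -0.87 to 0.06), with 4.95 to 5.65 in PF and 4.63 to 5.27 in HS (chosen after its values were seen). Of 13 other class I type molecules measured, 10 were lower and 3 higher (median -0.18), and none was called. A mean log2 signal under 5 was found for 7 of these 13. FCGRT, the neonatal Fc receptor chain that pairs with beta-2-microglobulin, had -0.18 and the lipid-presenting CD1D had 0.17. FCGRT turned to 0.02 without PF replicate 3, and CD1D was at 0.29 without HS replicate 4.

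The interferon gamma response list, which holds genes induced together with the immunoproteasome in other cells, had 18 of 22 genes lower and 4 higher, with a median log2 fold change of -0.37. In this list 8 of the 22 genes had a mean log2 signal under 5. IRF1 is among the genes that stand both in this list and in that of the transcription factors. IFI47 was called, at 3.92 to 7.66 in PF and 3.48 to 4.52 in HS (log2 fold change -2.33), and it was called in all 8 repeats without 1 array. Without PF replicates 1 and 3 together it was at -1.17 and was not called. All 13 MHC class II genes had lower means in HS (median -0.26) and none was called. Of these 13, 5 had a mean log2 signal under 5. Without PF replicates 1 and 3 together, 10 of the 13 were lower (median -0.14). BOLA-DRA, a class II chain, had log2 signals of 10.18, 7.58, 9.89 and 9.38 in PF replicates 1 to 4 and of 7.45, 8.18, 9.61 and 7.93 in HS replicates 1 to 4 (log2 fold change -0.96, 95% confidence interval -2.42 to 0.49). BOLA-DRB3 was at -0.73, and at -0.41 without PF replicate 3. Class II molecules are made by professional antigen-presenting cells and, after interferon gamma, by others.

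**Figure D5:**
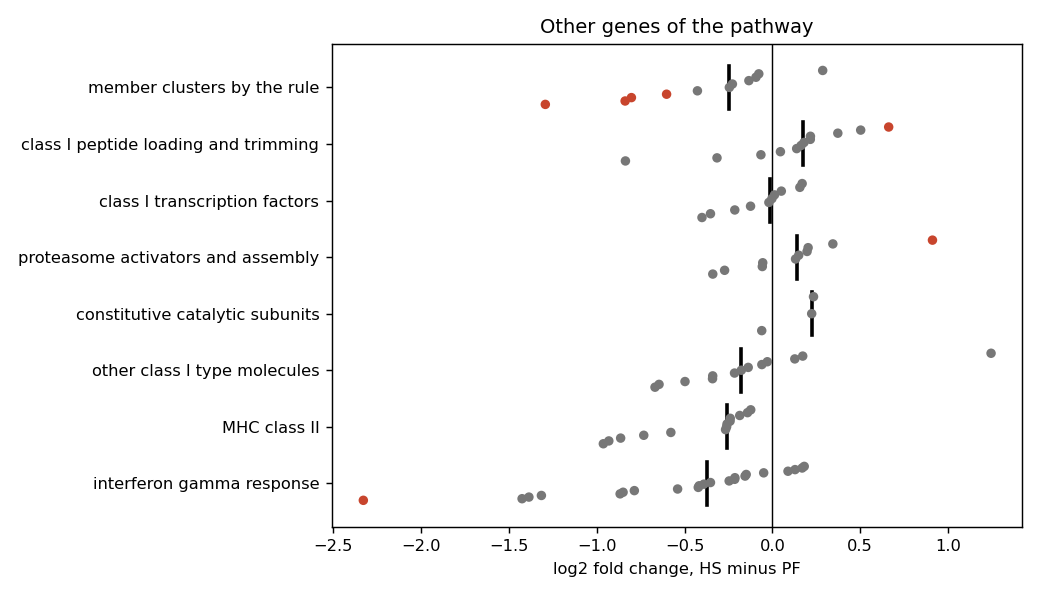
Log2 fold change, HS minus PF (x axis), of each measured gene in 7 lists around the class I pathway and of the 11 member clusters, 1 point per gene or cluster, with the median of each list as a black bar. Red points were called and grey points were not, and the vertical offset within a list has no meaning; the medians run from -0.37 (interferon gamma response) to 0.22 (constitutive catalytic subunits).

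The level of the 9 symbols was averaged for each array, with 1 cluster per symbol. The mean log2 signal was 8.04, 7.39, 7.64 and 7.33 in PF replicates 1 to 4 and 7.17, 7.30, 7.62 and 6.93 in HS replicates 1 to 4, with PF replicate 1 above and HS replicate 4 below all others. In this mean BOLA is represented by cluster 12802789, which has the widest range. Among 12414 named clusters outside the group with a mean log2 signal of at least 5, the array pattern most like it was that of CASP8, a caspase gene, with a Pearson correlation of 0.99 over the 8 arrays. F5, PLK2, PRKCB, SNX18, ESYT2, LOC781298 and SVIL followed with 0.96 to 0.97. None of these 8 genes was called. The points share arrays and normalization, and the genes were picked as the closest of many. Among the members, PSMB8 came closest to the mean of the others, with a correlation of 0.85 over the 8 arrays, followed by TAP1 with 0.72 and B2M with 0.70. TAPBP ran against it with -0.55.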

How the data were processed

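Mural granulosa cell RNA of 8 cows (4 HS, 4 PF) was hybridized to 8 arrays. Per the methods, the authors ran RMA with default settings in the Expression Console and deposited log2 signals, between 0.89 and 12.5, in a pair of tables that differ by at most 1.8e-15. No filter was set on weak signals. Gene symbols were those of the array annotation (1 symbol for 20378 clusters, several for 196, none for 6199), and coordinates were those of its descriptions (UMD3.1). RMA equalizes the arrays, so that a shift of all transcripts would not be seen.

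An unpaired linear model of limma 3.58.1 (R 4.3.3; lmFit, then eBayes) was fitted to all clusters for HS against PF. Single clusters were also tested by exact permutation, two-sided, over all 70 assignments. Samples are separate cows, numbered by replicate in the labels. The alternatives were the methods' t-test (the analysis of variance run by the authors in the Transcriptome Analysis Console 3.0), array weights, eBayes with a trend, biweight averages, only clusters with a symbol, only clusters with a mean log2 of 5 or more, subtraction of array medians, a repeated quantile normalization, the second deposited table, the replicate number as a block, the mean or every cluster of a symbol, and each array left out. Leaving out PF replicates 1 and 3 together was added after seeing the data. All member clusters are named. Of each pathway list the text names up to 4 called genes by the smallest p, or else the 2 with the highest mean, and of likeness the 8 closest genes, except for items that are not reported here. Members and lists were chosen with earlier results of these data known. In lists the cluster with the highest mean stands for a gene. Of the listed genes BOLA-N, MICB, ULBP13 and MRC1 were not measured under these symbols, and 1 gene was matched through a synonym. On simulated data with 26773 clusters for HS against PF, 87 of 100 clusters with a log2 change of 1 and 100 of 100 with a change of 2 were called, and so were 390 of 26573 unchanged clusters. The simulated noise was normal and independent between clusters, and the changed clusters had a mean log2 above 5. These rates therefore check the fit and need not hold for the real arrays, on which some samples stood apart.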

Additional observations from a re-analysis of the deposited data

Results flagged for a closer look

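JSP.1 (cluster 12804076) in HS replicate 4 had a log2 signal of 7.31, far below the other HS samples, of which the nearest was at 8.28 and the highest at 8.39. The gap was 0.894 of the range of the group, above the critical value of Dixon's test for 4 samples. This was the single such sample among 24 groups examined (12 clusters in HS and in PF), and chance gives about 1 in 20. Without this array the log2 fold change of JSP.1 was -0.58 in place of -0.84 and the cluster was not called. The same array had the high CYP19A1 signal of 10.65.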

How the results depend on the processing

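With the methods' t-test 355 clusters were called in place of 591, and 333 to 1566 when 1 array was left out. Of the members, 2 in place of 4 were called with the methods' t-test (BOLA 12805748 and JSP.1 were kept), with array weights (BOLA 12805748 and PSMB8 were kept) and after subtraction of array medians (BOLA 12805748 and JSP.1 were kept), 1 without PF replicates 1 and 3 together, and 1 to 4 when 1 array was left out. BOLA 12805748 was called under every alternative run on this cluster, but the mean of all BOLA clusters, at -0.54, was not called. The median log2 fold change of the members stayed below 0 throughout, between -0.49 and -0.09 when 1 array was left out. BOLA 12802789 turned to 1.12 with array weights, to 1.04 without PF replicates 1 and 3 together, and ranged from -0.94 to 0.30 when 1 array was left out (above 0 without PF replicate 1, PF replicate 3 or HS replicate 4). BOLA 12801474 ranged from -0.20 to 0.012 when 1 array was left out (above 0 without PF replicate 1 or 4). Over all settings of the 12 single clusters, 198 of 229 values kept direction and call, 24 lost the call and 7 changed sign. Only the 4 called clusters had a call to lose, and the losses were 10 for B2M, 10 for PSMB8 and 4 for JSP.1. B2M and PSMB8 kept their call in only 9 settings each. The second deposited table could not change a value, and the biweight setting kept the p of the main fit, so the total overstates the stability. The cause was not tested.

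The labels do not say whether the replicate numbers pair the cows, and the correlations of so few pairs cannot settle it. Deviations of samples with the same number correlated between -0.27 and 0.21 over 4 pairs, and 1 of 8 arrays was closest to its own number. With this number as a replicate block 669 clusters were called, among them 3 of the 4 member clusters, without PSMB8. Weak signals, as for PSMB9, limit what can be seen.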

Other observations

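Chemokine genes that interferon gamma induces had the widest ranges of the response list, with no call. CXCL9 had log2 signals of 7.66, 3.28, 4.72 and 5.96 in PF replicates 1 to 4 and 3.27, 3.84, 5.33 and 3.48 in HS replicates 1 to 4. CXCL10 had 8.36, 3.57, 5.06 and 7.42 in PF and 3.87, 4.21, 6.78 and 4.01 in HS. PF replicate 2 and HS replicates 1, 2 and 4 were low for both, as they were for B2M and PSMB8. IFNG itself was at 2.79 to 3.26 on all arrays, the weak end of the scale. IRF8, a transcription factor of myeloid and B cells, had no overlap between the groups, with 5.42 to 7.33 in PF and 5.03 to 5.29 in HS (log2 fold change -0.85, limma unadjusted p = 0.056, and -0.41 without PF replicate 3). ULBP11, a class I type ligand of natural killer cells, was at 6.20 in HS replicate 4 and at 1.37 to 1.75 on the other arrays. The genes of this paragraph were picked with their values in view.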
